A study of Mus musculus with 9 samples.

Results

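The vasomotor tone genes of endothelium were 9 genes through which brain vessels set their calibre: Nos3, Edn1, Edn3, Ednrb, Ece1, Ace, Ptgs1, Ptgs2 and Ptgis. They were 9 of the 20035 genes that the deposited annotation named for at least 1 peak of open chromatin, and every peak carrying one of the 9 names was taken, 282 of 253457 peaks. Accessible DNA was mapped in nuclei of flow-sorted mouse brain endothelial cells (ECs) by Omni-ATAC-seq, an assay that inserts sequencing adapters into open chromatin with a transposase. All mice carried the CDH5-CreERT2 transgene, which drives a tamoxifen-inducible Cre from the VE-cadherin promoter, and all were given tamoxifen as young adults. In EC-K4KO mice the Cre deleted floxed Klf4, a zinc-finger transcription factor of the endothelium, and in WT Cre mice Klf4 was intact. The 4 groups were young WT Cre (n = 2 libraries), young EC-K4KO (n = 3), old WT Cre (n = 2) and old EC-K4KO (n = 2). The study calls the libraries of a group biological replicates, and whether each came from 1 mouse or from a pool is not given in the sources used here. All young libraries shared one library name prefix and all old libraries another, so age and that prefix cannot be told apart.

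The endothelium relaxes or contracts the smooth muscle around it by releasing diffusible factors. Nos3, endothelial nitric oxide synthase, makes the dilator nitric oxide. Ece1 cleaves the precursors of the endothelins to active peptides, of which Edn1 encodes the constrictor endothelin-1 and Edn3 endothelin-3, and Ednrb encodes the B-type endothelin receptor, through which ECs take up endothelin and release nitric oxide. Ace converts angiotensin I to the constrictor angiotensin II and degrades bradykinin. Ptgs1 and Ptgs2 are the constitutive and inducible cyclooxygenases, and Ptgis turns their product into the dilator prostacyclin.

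Peaks had been called in each library alone, and the lists differed in length. The young WT Cre lists held 6157 and 9598 peaks, the young EC-K4KO lists 23848 to 27992, the old WT Cre lists 32555 and 43893, and the old EC-K4KO lists 39079 and 45026. Read depth was not given, so a missing peak says that none was called and not that the site was closed. Joining the overlapping peaks of the 9 lists gave 92495 regions, and 96 of these included a peak named for one of the 9 genes. Over the 4872 regions with a peak in every library, the strengths of the 2 young WT Cre libraries correlated at 0.749 with each other and at 0.715 to 0.795 with the other libraries, whereas libraries of the other groups correlated at 0.875 to 0.973 within their group. The 2 young WT Cre libraries were therefore no more alike than the range of their correlations with the other groups. Pairs across the other groups went as low as 0.762, for old WT Cre replicate 1 with young EC-K4KO replicate 1. Values against young WT Cre are also given without replicate 1 or without both where that changed a call or let a further site be fitted. Promoter peaks were named for 7 to 10 of 12 endothelial marker genes in each library, 0 of 10 microglial genes and 0 to 2 of 8 genes each for astrocytes, oligodendrocytes and neurons. Of 10 pericyte and smooth muscle genes, none had a promoter peak in the 5 young libraries, 0 and 2 had one in old WT Cre, and 5 and 3 in old EC-K4KO. The 4 of these genes without a promoter peak in any library were Rgs5, Abcc9, Notch3 and Anpep. Of all named genes, 17.0% to 36.5% had a promoter peak in the young libraries and 40.4% to 42.3% in the old ones. A promoter peak of Klf4 itself was called in all 9 libraries, at rank 2467 to 3588 of the list in young WT Cre, 911 to 1414 in young EC-K4KO, 4166 to 5797 in old WT Cre and 3387 to 3502 in old EC-K4KO. As a share of list length these ranks were 25.7% to 58.3%, 3.82% to 5.05%, 12.8% to 13.2% and 7.52% to 8.96%, in the same order of groups. A peak at the promoter is no check of the deletion.

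Upstream sequences in RefSeq (build GRCm38.p6, the build of the files) matched 7 of the 9 genes with 11 start sites. The 250 bases upstream of 5 of these starts are shown, those of the gene's own strand, because peaks over them are compared in the results: Edn1 (chr13:42301226-42301475, + strand), the upstream and the internal start of Ece1 (chr4:137861987-137862236 and chr4:137913308-137913557, + strand), Edn3 (chr2:174760369-174760618, + strand) and Ednrb (chr14:103843702-103843951, − strand). Capitals mark the letters CCACCC, the core bound by KLF factors (on the other strand these read as GGGTGG), and, in Ednrb, the half-site bound by CREB, TGACGT.
Edn1: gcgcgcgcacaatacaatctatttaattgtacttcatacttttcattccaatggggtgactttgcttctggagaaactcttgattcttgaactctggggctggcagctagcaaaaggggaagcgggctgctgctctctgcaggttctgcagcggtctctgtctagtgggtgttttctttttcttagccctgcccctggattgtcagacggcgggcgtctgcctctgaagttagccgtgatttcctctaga
Ece1, upstream start: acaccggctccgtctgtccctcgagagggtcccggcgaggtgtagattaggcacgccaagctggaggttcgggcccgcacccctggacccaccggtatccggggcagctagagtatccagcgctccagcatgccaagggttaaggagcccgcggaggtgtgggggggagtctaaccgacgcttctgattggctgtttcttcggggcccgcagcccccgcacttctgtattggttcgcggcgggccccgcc
Ece1, internal start: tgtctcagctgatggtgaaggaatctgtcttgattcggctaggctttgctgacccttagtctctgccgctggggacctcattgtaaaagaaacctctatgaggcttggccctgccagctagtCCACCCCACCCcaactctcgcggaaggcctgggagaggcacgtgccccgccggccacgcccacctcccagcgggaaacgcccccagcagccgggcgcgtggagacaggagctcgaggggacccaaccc
Edn3: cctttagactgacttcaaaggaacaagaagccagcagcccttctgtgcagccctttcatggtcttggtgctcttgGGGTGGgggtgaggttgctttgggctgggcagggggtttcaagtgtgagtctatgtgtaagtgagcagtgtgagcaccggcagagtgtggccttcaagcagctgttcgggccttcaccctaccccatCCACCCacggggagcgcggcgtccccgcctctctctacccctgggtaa
Ednrb: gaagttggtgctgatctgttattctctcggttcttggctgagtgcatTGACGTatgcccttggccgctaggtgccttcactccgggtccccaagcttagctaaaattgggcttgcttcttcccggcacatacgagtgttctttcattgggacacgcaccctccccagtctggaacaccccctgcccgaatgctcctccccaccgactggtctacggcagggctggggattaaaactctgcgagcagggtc
On both strands, the internal Ece1 start held CCACCC 2 times in overlapping copies and Edn3 2 times, and the Edn1, upstream Ece1 and Ednrb windows held none. Of all 32841 RefSeq windows of this length, 28.1% held CCACCC and 6.5% held TGACGT. None of the 11 windows held the ETS core CCGGAA, which occurred in 12% of all windows.

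Peak centres of 2 distal sites on which later comparisons turn are shown as 200 bases of the + strand around the centre of the strongest peak: the site 264409 bp downstream of the Edn1 start (chr13:42565555-42565754) and the intronic site 8652 bp downstream of the Edn3 start (chr2:174769306-174769505). Neither window held a match on either strand to the KLF, ETS or CREB letters given above, nor to TGANTCA (AP-1), to the GATA letters AGATAA, to the FOX letters TGTTTAC or to the TATA box, TATAAA.
Edn1, 264409 bp downstream: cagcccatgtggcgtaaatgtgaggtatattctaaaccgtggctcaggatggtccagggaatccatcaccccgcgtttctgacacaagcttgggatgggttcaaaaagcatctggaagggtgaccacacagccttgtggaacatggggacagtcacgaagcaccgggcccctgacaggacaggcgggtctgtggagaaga
Edn3, 8652 bp downstream: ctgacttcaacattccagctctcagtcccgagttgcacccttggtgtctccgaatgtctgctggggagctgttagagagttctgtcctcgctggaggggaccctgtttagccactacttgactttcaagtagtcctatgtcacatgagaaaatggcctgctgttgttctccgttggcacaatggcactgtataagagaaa
Of 41 such distal windows of the 7 genes found in at least 2 libraries, 5 (12.2%) held CCACCC, beside 20.5% of 30969 distal windows of all genes.

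Peaks of the 9 genes were most numerous in the old libraries and fewest in young WT Cre, as were all peaks. There were 4 and 9 such peaks in the young WT Cre libraries, 14, 25 and 25 in young EC-K4KO, 49 and 37 in old WT Cre, and 55 and 64 in old EC-K4KO. Per 10000 peaks of the list this was 6.50 and 9.38 in young WT Cre, 5.87, 9.88 and 8.93 in young EC-K4KO, 11.2 and 11.4 in old WT Cre, and 12.2 and 16.4 in old EC-K4KO. Every old library thus lay above every young library also per 10000 peaks, whereas the WT Cre and EC-K4KO libraries overlapped among the young and did not among the old. No test was made on these counts over chosen genes. The promoter peaks of pericyte and smooth muscle genes, 0 in each young library, 0 and 2 in old WT Cre and 5 and 3 in old EC-K4KO, were also most numerous in old EC-K4KO. There they stood at a median of 74.5% and 76.1% of the way down the list. Of the 8 neuronal genes, 2 had a promoter peak in each old EC-K4KO library, 0 in old WT Cre and 0 or 1 in the young libraries. Over all named genes the share with a promoter peak was 17.0% to 36.5% in the young libraries, 40.6% and 40.4% in old WT Cre, and 42.3% and 41.3% in old EC-K4KO. The part of either marker list in the differences between old and young and between the old groups was not tested. Among the strongest 6157 peaks of each list, the length of the shortest, the counts were 4 and 5 in young WT Cre, 3, 1 and 4 in young EC-K4KO, 4 and 3 in old WT Cre, and 4 and 6 in old EC-K4KO. At equal list length the groups overlapped.

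**Figure D1:**
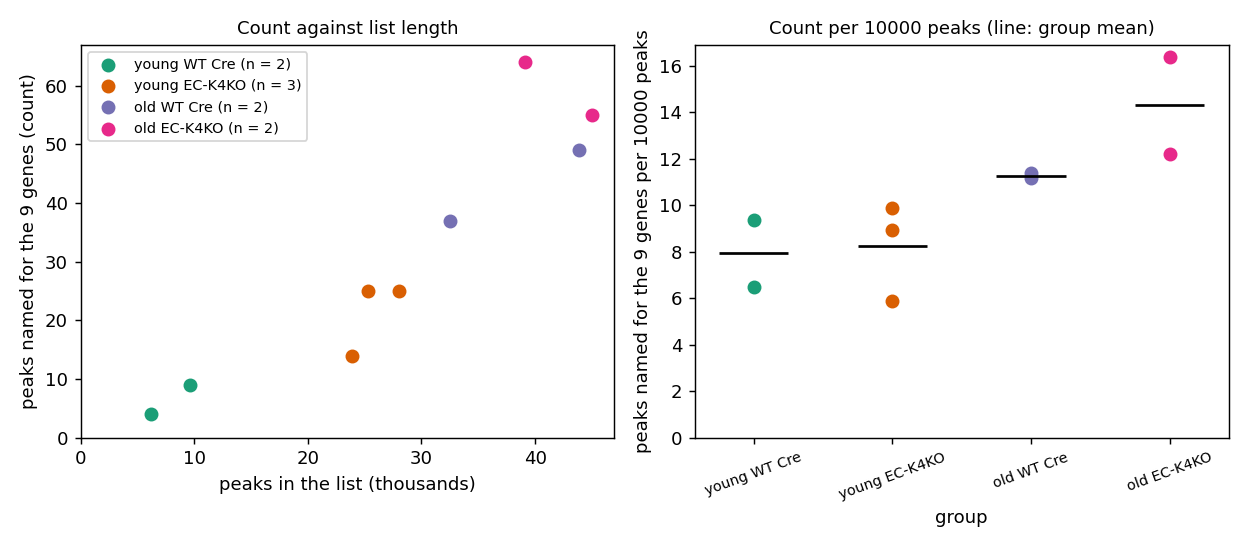
The left panel plots the number of peaks named for the 9 genes in each library against the length of its peak list in units of 1000 peaks, and the right panel plots the number per 10000 peaks by group, with a line at the group mean. Points are libraries; all 4 old libraries, at 11.2 or more per 10000 peaks, sit above all 5 young libraries, at 9.88 or less.

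Most of the additional peaks lay outside promoters. Peaks classed as promoter-TSS, that is near a transcription start site (TSS), numbered 2 in both young WT Cre libraries, 2, 4 and 4 in young EC-K4KO, 2 and 4 in old WT Cre, and 4 and 7 in old EC-K4KO. Other peaks, here called distal, numbered 2 and 7, then 12, 21 and 21, then 47 and 33, and then 51 and 57 in the same order of groups. The class followed the deposited label, so distal peaks included start-site peaks deposited as exon or intron, at Edn1 and at the internal Ece1 start among others. In young WT Cre replicate 1 both distal peaks were of this kind, 235 bp wide at Edn1 and 281 bp at Ece1. The distal values of that library therefore describe start sites. Per 10000 distal peaks of the list, the 9 genes had 7.29 and 13.8 in young WT Cre, 6.76, 11.7 and 10.2 in young EC-K4KO, 13.2 and 13.6 in old WT Cre, and 14.0 and 18.6 in old EC-K4KO, so on this scale young WT Cre replicate 2 lay within the range of the old libraries. Promoter peaks of the 9 genes had a median width of 249.5 to 680.0 bp across libraries, and distal ones of 258 to 409 bp. All promoter peaks of the lists had a median width of 366 to 640.0 bp and all distal peaks one of 320.0 to 392 bp. The distal peaks of the 9 genes ranked at a median of 42.9% to 71.4% of the way down their list, and all distal peaks at 57.5% to 66.8%. Their promoter peaks ranked at a median of 10.1% to 75.6%, and all promoter peaks at 15.4% to 37.7%. In old EC-K4KO the promoter medians were 38.1% and 75.6% for the 9 genes, beside 16.0% and 17.8% for all promoter peaks. Per 10000 promoter peaks of the list, the 9 genes had 2.43 to 8.33 across libraries.

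Of the 96 regions, 40 (41.7%) had a peak in a single library, beside 57.3% of all regions, and 2 (2.08%) in all 9, beside 5.27%. The 8 promoter regions were found in a median of 6 libraries and all promoter regions in 7. For the 88 distal regions the median was 2, and for all distal regions 1. The genes differed in their number of regions: Edn1 had 22, Ednrb 16, Ece1 and Edn3 13 each, Ptgis 10, Ptgs1 9, Ptgs2 5, and Nos3 and Ace 4 each. Edn1, with 64 peaks over all libraries, exceeded 98.7% of all named genes in peak number, Ece1 (54 peaks) 97.7%, Edn3 (38) 94.5% and Ednrb (32) 92.1%. Ace, with 11, was near the median of 9 peaks over all named genes.

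**Figure D2:**
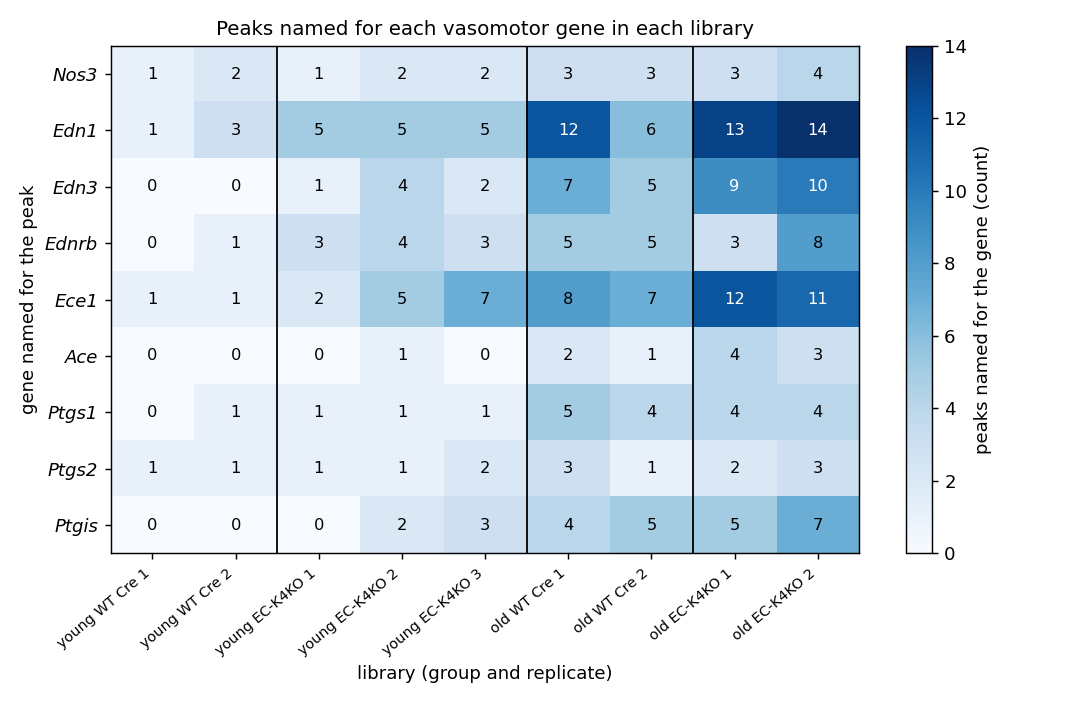
Each cell gives the number of peaks named for a gene (rows) in a library (columns, by group and replicate), with darker blue for more peaks and black lines between groups. Edn1 and Ece1 have at least 1 peak in every library and reach 14 and 12 peaks in the old EC-K4KO libraries, while Ace, Edn3 and Ptgis have none in the young WT Cre libraries.

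**Figure D3:**
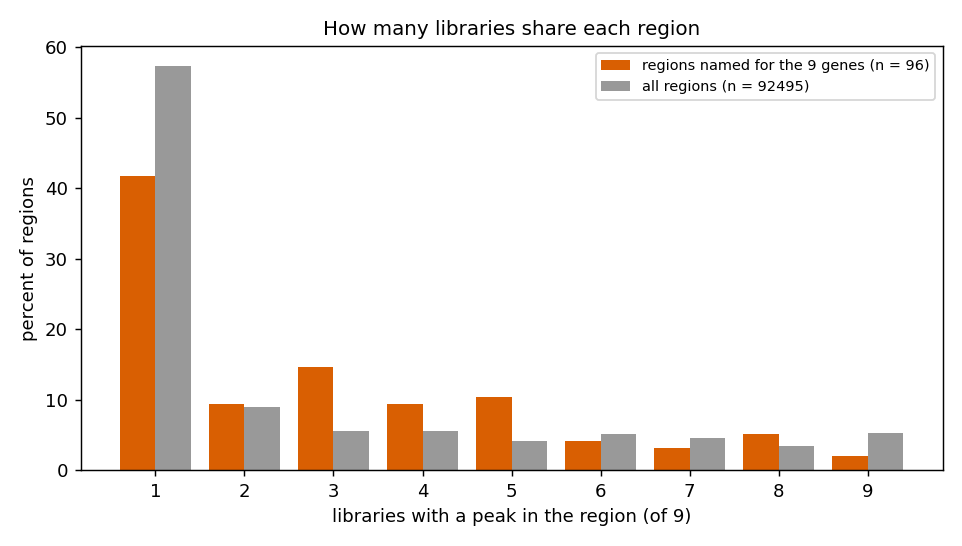
Bars give the percent of regions that have a peak in 1 to 9 of the 9 libraries, in orange for the 96 regions of the 9 genes and in grey for all 92495 regions. Regions in a single library are the most frequent in both, at 41.7% and 57.3%.

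The Nos3 promoter was open in every library. Its peaks lay within chr5:24364291-24365024, over the GENCODE start of the gene at 24364810, on chromosome 5. Ranked by the peak caller's p-value from strongest to weakest, the peak stood at 4364 of 6157 and 2368 of 9598 in young WT Cre, at 4653, 6395 and 5993 in young EC-K4KO, at 4604 and 3981 in old WT Cre, and at 3743 and 3238 in old EC-K4KO. As a percentile of strength among the 4872 regions found in all libraries (100 is strongest), it was at 16.9 and 54.1 in young WT Cre, 23.3, 11.4 and 13.5 in young EC-K4KO, 29.2 and 33.7 in old WT Cre, and 37.98 and 44.2 in old EC-K4KO. The 3 young EC-K4KO libraries lay below all 4 old libraries, and the 2 young WT Cre libraries lay further apart than the libraries of any other group. On a normal score of this rank, old EC-K4KO exceeded young EC-K4KO by 0.79 ± 0.30 (SE; 95% interval 0.13 to 1.44), which did not pass limma with Benjamini-Hochberg adjustment (adjusted p = 0.137), where 6.51% of the 4872 regions were called. Young EC-K4KO minus young WT Cre was −0.59 ± 0.30 (adjusted p = 0.261 by limma), where 4.15% were called. In the limma fit without young WT Cre replicate 1, over 7440 regions, that difference was −0.93 ± 0.24 with an adjusted p = 0.0360, and 10% of regions were called. Without young WT Cre replicate 2 it was −0.0049 (adjusted p = 0.992 by limma), so the call turned on which young WT Cre library was left out, and in both fits the spread came from the other groups. Old WT Cre minus young WT Cre was −0.06 ± 0.33 (adjusted p = 0.926 by limma, 6.08% called). Old EC-K4KO minus old WT Cre was 0.26 ± 0.33 (adjusted p = 1.00 by limma), with 0% called and 189 regions at an unadjusted p under 0.05. These errors pool the spread within all 4 groups, that between the 2 young WT Cre libraries included. In a fit of the 4 old libraries alone, over 23788 regions, the latter difference was 0.14 ± 0.13 (adjusted p = 0.703 by limma). There 0% of regions were called and 3104 had an unadjusted p under 0.05.

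The width of the Nos3 promoter peak was 216 and 362 bp in young WT Cre, 420, 532 and 603 bp in young EC-K4KO, 719 and 529 bp in old WT Cre, and 512 and 467 bp in old EC-K4KO. Both young WT Cre peaks were thus narrower than all others. Peaks were narrower in general in young WT Cre, and relative to each library's median over the common regions the Nos3 width differed by 0.37 ± 0.21 (log2) between old and young WT Cre (adjusted p = 0.274 by limma, 12% called) and by 0.21 ± 0.20 between young EC-K4KO and young WT Cre (adjusted p = 0.510, 13.5% called). Without that centring the same differences in limma were 1.14 (adjusted p = 0.0122) and 0.87 (adjusted p = 0.0257), in fits that called 3433 and 2886 of the 4872 regions. The relative width of old EC-K4KO minus old WT Cre was −0.43 ± 0.21 (adjusted p = 1.00 by limma), where 0% were called and 93 regions had an unadjusted p under 0.05. Between old and young EC-K4KO it was −0.27 ± 0.20 (adjusted p = 0.815 by limma), where 0.123% were called.

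Nos3 had 3 distal regions. The one 3663 bp upstream of the start (chr5:24360863-24361425, intergenic) was called in 7 libraries, young WT Cre replicate 2, young EC-K4KO replicates 2 and 3 and all 4 old ones, and ranked between 6366 of 9598 and 26290 of 45026. A narrow site 929 bp downstream, in an intron (chr5:24365636-24365855), was called in all 4 old libraries and in no young one, at 214 and 177 bp in old WT Cre and 191 and 219 bp in old EC-K4KO. This pattern, all old and no young libraries, held for 4 of the 96 regions (4.17%) and for 3.81% of all regions. Over the 9 percentiles, the promoter regions most like that of Nos3 among 3410 were those named Pno1/Wdr92, Fam210a/Rnmt and Cct5/Fam173b, at Euclidean distances of 19.3, 20.6 and 21.2 percentile points, where the median over all was 97.5.

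**Figure D4:**
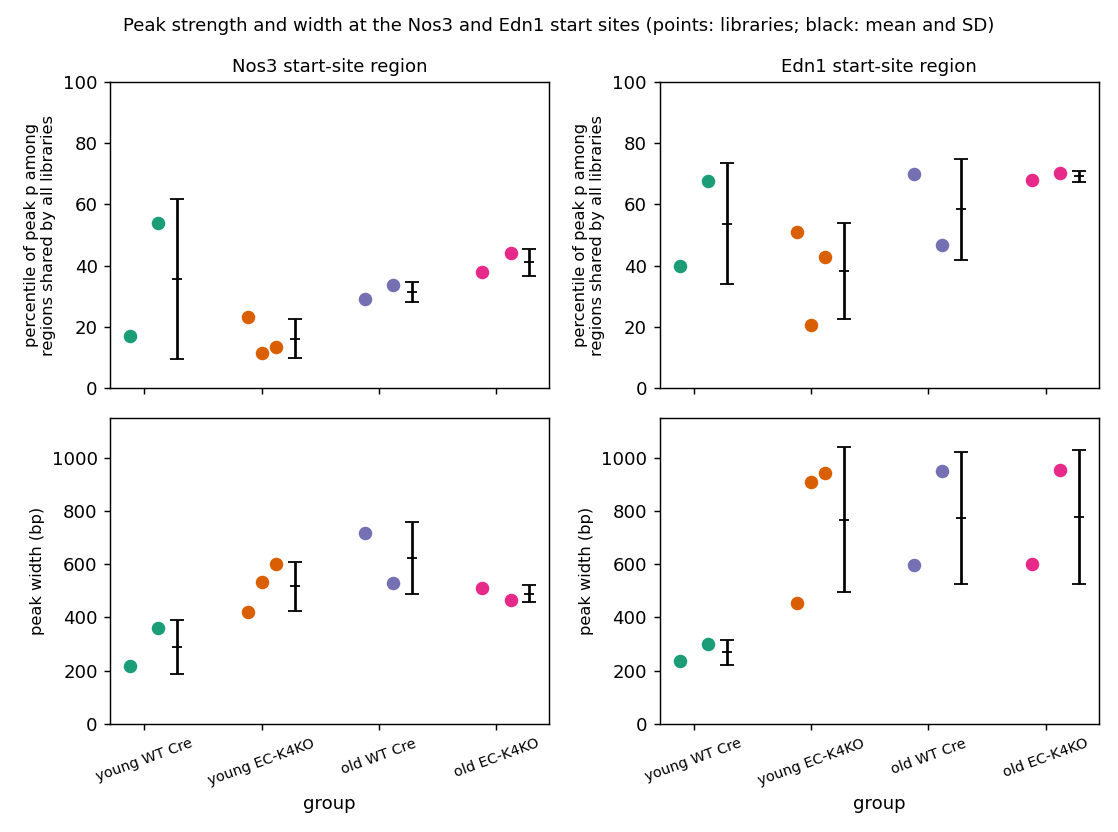
The upper panels plot the strength percentile among the 4872 shared regions and the lower panels the peak width in bp at the Nos3 (left) and Edn1 (right) start sites, by group. Coloured points are libraries and black marks the mean and SD of the group; at Nos3 the 3 young EC-K4KO libraries (11.4 to 23.3) lie below the 4 old ones (29.2 to 44.2), and at both genes the young WT Cre peaks are the narrowest.

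At Edn1 the start site was also open in every library, within chr13:42300779-42301741 over the RefSeq start at 42301476. The deposited class of the peak was exon in 5 libraries and promoter-TSS in 4, according to where its centre fell. The peak ranked 3015 of 6157 and 1613 of 9598 in young WT Cre, 2547, 5047 and 3081 in young EC-K4KO, 1529 and 2922 in old WT Cre, and 1648 and 1506 in old EC-K4KO. Its percentiles were 39.8 and 67.7 in young WT Cre, 50.9, 20.6 and 42.9 in young EC-K4KO, 70.1 and 46.7 in old WT Cre, and 67.9 and 70.5 in old EC-K4KO. Both old EC-K4KO libraries thus stood above the 3 young EC-K4KO libraries, and old WT Cre overlapped both. The normal score differed by 0.83 ± 0.31 between old and young EC-K4KO (adjusted p = 0.138 by limma), by −0.43 ± 0.31 between young EC-K4KO and young WT Cre (adjusted p = 0.441), by 0.12 ± 0.34 between old and young WT Cre (adjusted p = 0.849) and by 0.28 ± 0.34 between old EC-K4KO and old WT Cre (adjusted p = 1.00).

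The Edn1 start-site peak was 235 and 302 bp wide in young WT Cre, 453, 910 and 943 bp in young EC-K4KO, 598 and 951 bp in old WT Cre, and 600 and 956 bp in old EC-K4KO. All 7 other libraries had a wider peak than young WT Cre, and each of the other groups held both peaks of 600 bp or less and peaks of 910 bp or more, the latter being the 4 classed promoter-TSS. Relative to the library median, the width differed by 0.79 ± 0.33 (log2) between young EC-K4KO and young WT Cre (adjusted p = 0.145 by limma) and by 0.73 ± 0.36 between old and young WT Cre (adjusted p = 0.209). Without the centring these were 1.45 (adjusted p = 0.0176 by limma) and 1.5 (adjusted p = 0.0176). The test of whether the genotype difference itself differed between ages passed for neither gene. This interaction was 0.84 ± 0.44 for the score of Nos3 (adjusted p = 0.543 by limma) and 0.70 ± 0.47 for that of Edn1 (adjusted p = 0.625), with 0% of regions called and 525 at an unadjusted p under 0.05. For the relative width it was −0.64 ± 0.29 at Nos3 (adjusted p = 0.336 by limma) and −0.87 ± 0.49 at Edn1 (adjusted p = 0.436), with 0.349% called.

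Most Edn1 peaks lay far downstream of the gene. Among the 21 distal regions, that 264409 bp downstream (chr13:42565194-42566163, intergenic) was called in 8 libraries, all but young WT Cre replicate 1. It ranked 5091 of 9598 in young WT Cre replicate 2, 9355, 9368 and 8639 in young EC-K4KO, 8392 and 9700 in old WT Cre, and 7227 and 6008 in old EC-K4KO, with widths of 703 to 913 bp. The old EC-K4KO ranks were ahead of those of old WT Cre and of young EC-K4KO. In the limma fit over the 7440 regions of the 8 libraries, its score was 0.70 ± 0.18 higher in old than in young EC-K4KO (adjusted p = 0.0352, with 13.4% of regions called). In the fit over the 11594 regions of the 7 libraries other than young WT Cre it was 0.55 ± 0.17 higher (adjusted p = 0.0750 by limma, 8.62% called), so the call depended on the set of regions. Old EC-K4KO minus old WT Cre was 0.45 ± 0.20 (adjusted p = 0.808 by limma) in the former, and the interaction was 1.26 ± 0.31 (adjusted p = 0.0863, 0.39% called), against a single young WT Cre library.

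An intergenic site 111568 bp downstream of Edn1 (chr13:42412585-42413198) ranked 21993 of 23848 in the 1 young EC-K4KO library that had it, 9353 and 9608.5 in old WT Cre, and 5247 and 5216 in old EC-K4KO, and was called in no young WT Cre library. Its fold enrichment was 2.88 in that young library, 7.29 and 7.75 in old WT Cre and 12.8 and 12.7 in old EC-K4KO. The ranks and folds of the 2 old groups did not overlap. In a limma fit of the 4 old libraries over 23788 regions, its score was 0.51 ± 0.12 higher in old EC-K4KO (adjusted p = 0.248). There 0% of regions were called and 3104 had an unadjusted p under 0.05. Old EC-K4KO minus old WT Cre was negative at other sites in that fit. It was −0.68 ± 0.16 at 31663 bp upstream of Ptgs1 (adjusted p = 0.255 by limma). At 8261 bp downstream of Ptgis it was −0.56 ± 0.14 (adjusted p = 0.266), and at 13862 bp upstream −0.40 ± 0.14 (adjusted p = 0.344). At 3663 bp upstream of Nos3 it was −0.49 ± 0.20 (adjusted p = 0.406). The region 192816 bp downstream of Edn1 (chr13:42493763-42494472) was called in all 4 old libraries and in no young one. In the same fit its score was 0.53 ± 0.17 higher in old EC-K4KO (adjusted p = 0.316 by limma). The site 117127 bp upstream of Edn1, inside an exon of the neighbouring gene Hivep1, was called in 2 young EC-K4KO libraries and no other. Names of distant sites depend on the annotation. By the nearest protein-coding start in GENCODE M21, 80 of the 96 regions kept their name, while of the 22 Edn1 regions 11, all those from 192816 bp onward, were nearer to a start of Phactr1 and 1 to Hivep1. The site 264409 bp downstream of Edn1 lay at −114.97 kb from that Phactr1 start, and the site 111568 bp downstream kept the name Edn1. Phactr1 and Hivep1 were named after their values were seen.

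**Figure D5:**
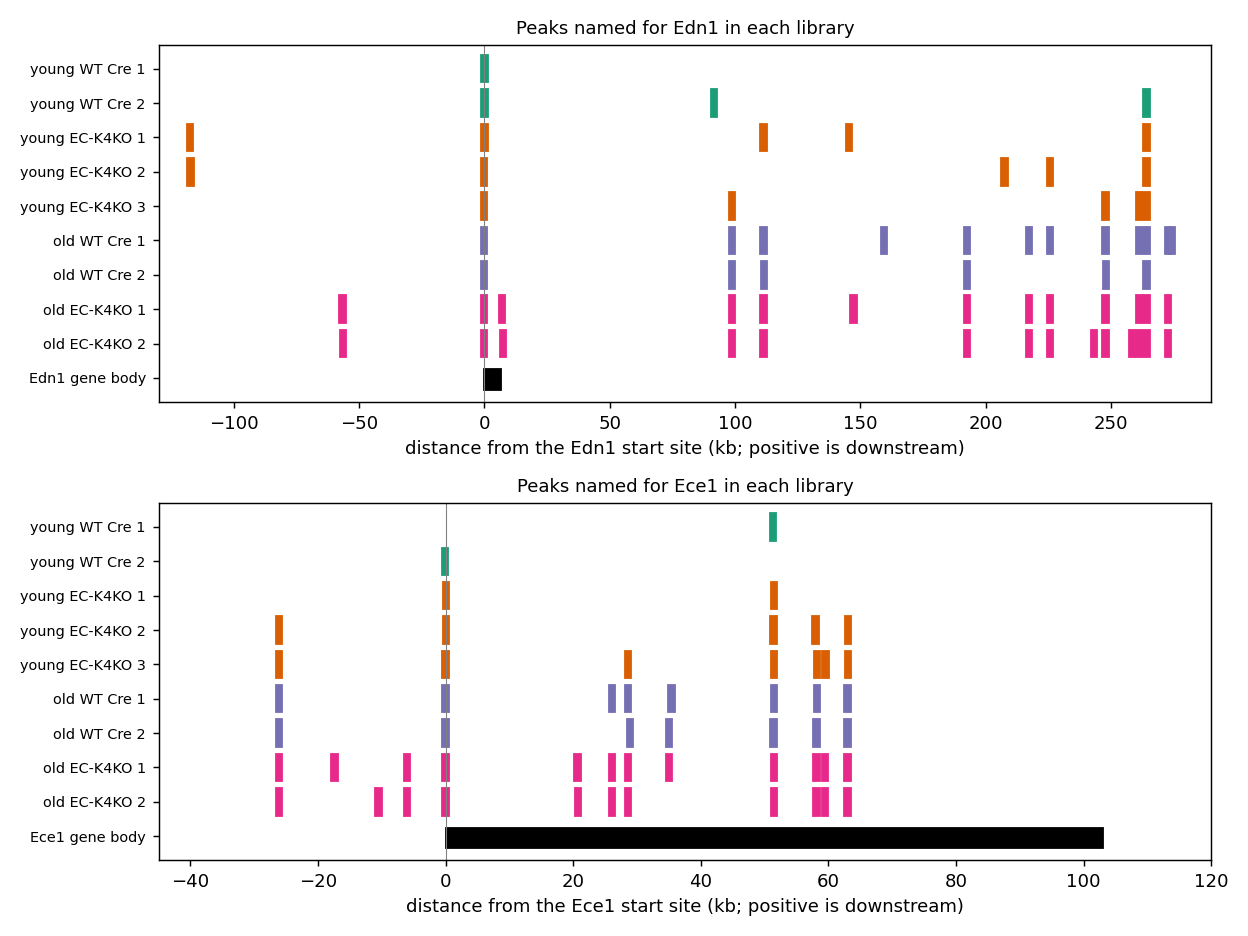
Bars mark the peaks named for Edn1 (upper panel) and Ece1 (lower panel) in each library, by distance in kb from the start site, with the gene body in black; bars are drawn wider than the peaks so that they can be seen. Edn1 peaks beyond 90 kb downstream are densest in both old EC-K4KO libraries and old WT Cre replicate 1, with 13, 14 and 12 Edn1 peaks in all. Old WT Cre replicate 2 has 6 Edn1 peaks, beside 5 for each young EC-K4KO library. Ece1 peaks cluster at 0 kb and between 50 and 65 kb.

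For Edn3, 3 libraries had a peak at the start site, all of them EC-K4KO (chr2:174760559-174761058). A peak of 291 bp ranked 20931 of 27992 in young EC-K4KO replicate 3, and peaks of 485 and 449 bp ranked 29582 of 45026 and 33591 of 39079 in old EC-K4KO. No WT Cre library had it, and all 3 peaks stood in the weaker part of their list. The pattern of at least 1 EC-K4KO library of each age and no WT Cre library held for 3 of the 96 regions (3.13%) and for 1.86% of all. The Edn3 site found in most libraries was the intronic one 8652 bp downstream (chr2:174768929-174769881), called in each of the 7 lists outside young WT Cre. It ranked 23700 of 23848, 13695 of 25309 and 20239 of 27992 in young EC-K4KO, 13139 of 43893 and 13443 of 32555 in old WT Cre, and 11996 of 45026 and 12918 of 39079 in old EC-K4KO. The young EC-K4KO ranks were all behind the old ones. Over the 11594 regions of these 7 libraries its score was 1.43 ± 0.43 higher in old than in young EC-K4KO, with an interval of 0.45 to 2.41 and an adjusted p = 0.0715 by limma. Its width was 711, 295 and 596 bp in young EC-K4KO and 838 to 953 bp in the old libraries. Relative to the library median, the width was 0.57 ± 0.40 (log2) greater in old than in young EC-K4KO (adjusted p = 0.530 by limma, 0.207% called). In no young WT Cre and all 7 other libraries were 2 of the 96 regions (2.08%), beside 3.94% of all regions.

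The receptor gene Ednrb had its 2 recurrent sites at the other end of the gene, in the last exon, where GENCODE places its 3′ untranslated region. The site 26674 bp downstream of the start (chr14:103816784-103817299) was called in 8 libraries, all but young WT Cre replicate 1. It ranked 8552 of 9598 in young WT Cre replicate 2, 5170, 6729 and 5762 in young EC-K4KO, 9248 and 9949 in old WT Cre, and 7673 and 6287 in old EC-K4KO. In the one young WT Cre library it stood near the end of the list, at 89.1% of its length, and in the others between 16.1% and 30.6%. Its score was 1.36 ± 0.24 higher in young EC-K4KO than in that library (adjusted p = 0.0110 by limma over 7440 regions, with 10% called), and 0.77 ± 0.25 higher in old WT Cre (adjusted p = 0.0709, 12.4% called). Both differences rest on 1 young WT Cre library, assumed to vary like the other groups. Old EC-K4KO minus old WT Cre was 0.48 ± 0.20 (adjusted p = 0.788 by limma). The second site, 28001 bp downstream (chr14:103815369-103815977), was called in the 7 libraries other than young WT Cre, with widths of 317 to 553 bp. The Ednrb start site (chr14:103843398-103843986) had a peak in young EC-K4KO replicate 2 (rank 17669 of 25309) and old EC-K4KO replicate 2 (rank 29551 of 39079) and in no other library. Of the 16 Ednrb regions, 12 were found in 1 library only.

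Ece1 was open at more than one of its start sites. The upstream start lay in chr4:137861899-137862550 and was called in 8 libraries, all but young WT Cre replicate 1. It ranked 4432 of 9598 in young WT Cre replicate 2, 8900, 7423 and 5210 in young EC-K4KO, 4297 and 4826 in old WT Cre, and 4980 and 5050 in old EC-K4KO. Its width was 296 bp in young WT Cre, 326, 384 and 378 bp in young EC-K4KO, 641 and 625 bp in old WT Cre, and 632 and 652 bp in old EC-K4KO. The old peaks were all wider than the young ones, with no overlap, and those of the 2 old groups overlapped. Relative to the library median the width was 0.57 ± 0.09 (log2) greater in old than in young EC-K4KO over 7440 regions (adjusted p = 0.108 by limma, with 0.161% called), and 0.50 ± 0.11 greater over 11594 regions (adjusted p = 0.189, 0.207% called). In the former fit, old EC-K4KO minus old WT Cre was −0.08 ± 0.10 (adjusted p = 1.00 by limma, 0.0134% called) and the interaction 0.25 ± 0.15 (adjusted p = 0.390, 1.67% called). Its score differed by 0.60 ± 0.25 between old and young EC-K4KO (adjusted p = 0.132 by limma) and by −0.09 ± 0.27 between old EC-K4KO and old WT Cre (adjusted p = 0.999).

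The site 51435 bp downstream (chr4:137913350-137914087), deposited as intron, covered a second start of Ece1 in RefSeq (137913558) and GENCODE. It was called in 8 libraries, all but young WT Cre replicate 2, so that the 2 young WT Cre libraries each had a peak over 1 of these 2 starts. It ranked 5779 of 6157 in young WT Cre replicate 1, 13876, 14940 and 9587 in young EC-K4KO, 13409 and 12002 in old WT Cre, and 12201 and 13805 in old EC-K4KO. In every library that had both, the internal start ranked behind the upstream one. A further region, 58142 bp downstream (chr4:137919805-137920960), covered another RefSeq start (137920793). It was called in 6 libraries, with widths of 339 and 798 bp in young EC-K4KO and of 980 to 1146 bp in the old ones. The intronic site 63006 bp downstream and the intergenic one 26163 bp upstream were called in the same 6 libraries, young EC-K4KO replicates 2 and 3 and all old ones. Sites 6059 bp upstream and 20716 bp downstream were found in both old EC-K4KO libraries and in no other, a pattern of 4 of the 96 regions (4.17%) and 3.84% of all regions; the others were 56379 bp upstream of Edn1 and 55586 bp downstream of Edn3.

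Ace, of the angiotensin arm, had a promoter peak (chr11:105967656-105968305) in young EC-K4KO replicate 2, old WT Cre replicate 2 and both old EC-K4KO libraries. It was 229 bp wide in the young library and 561 to 650 bp in the old ones, and ranked at 65.1% to 96.6% of the way down those lists. A site 1746 bp downstream, in an intron, was called in old WT Cre replicate 1 (rank 39095 of 43893) and in both old EC-K4KO libraries (ranks 22082 of 45026 and 19522 of 39079). No library of young WT Cre had a peak named Ace.

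The prostanoid genes had few peaks at their starts. Ptgs1 had no promoter peak in any library, and its recurrent sites lay 31663, 19479 and 16230 bp upstream, in 5, 4 and 5 libraries. That 19479 bp upstream (chr2:36210821-36211068) was called in all 4 old libraries, with widths of 188 to 248 bp, and in no young one. Ptgis had a promoter peak only in old EC-K4KO replicate 2, at rank 36417 of 39079. Its most recurrent site, 13862 bp upstream (chr2:167254215-167254576, intergenic), was called in young EC-K4KO replicates 2 and 3 and in all old libraries, with folds of 5.34 and 6.0 in the young and 6.32 to 8.26 in the old.

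A peak lay over the Ptgs2 start (chr1:150099485-150100404) in 8 libraries, although only that of young WT Cre replicate 1 carried the name Ptgs2. In the 7 others, all but young WT Cre replicate 2, the annotation gave the name of the antisense gene Ptgs2os, which was noticed after the values were seen. The peak ranked 4028 of 6157 in young WT Cre replicate 1, 5403, 8026 and 14156 in young EC-K4KO, 12162 and 13736 in old WT Cre, and 14599 and 13140 in old EC-K4KO. Its widths were 283 bp in young WT Cre, 579, 564 and 739 bp in young EC-K4KO, 837 and 783 bp in old WT Cre, and 920 and 831 bp in old EC-K4KO. All old peaks were wider than all young ones, with folds of 4.49 to 7.02 over all libraries. Peaks of the common regions were also wider in every old library, at a median of 699 to 752 bp, than in the young, at 377 to 697 bp. Relative to the library median over 11594 regions, the width was 0.16 ± 0.14 (log2) greater in old than in young EC-K4KO. This did not pass (adjusted p = 0.600 by limma, 0.207% called). Counting any peak over a GENCODE or RefSeq start whatever its name, the start of Nos3, Edn1 and Ece1 was open in all 9 libraries, that of Ptgs2 in 8, Ace in 4, Edn3 in 3, Ednrb in 2, Ptgis in 1 and Ptgs1 in 0. By library this was 4 and 3 of the 9 genes in young WT Cre, 4, 6 and 5 in young EC-K4KO, 4 and 5 in old WT Cre, and 6 and 8 in old EC-K4KO. For all named genes only the deposited promoter class was counted. By that class the share with a promoter peak was 17.0% and 22.4% in young WT Cre and 30.2%, 36.0% and 36.5% in young EC-K4KO. It was 40.6% and 40.4% in old WT Cre and 42.3% and 41.3% in old EC-K4KO.

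The comparisons of groups then asked how many regions of the 9 genes appeared or disappeared. A region was counted as gained when at least 2 libraries of one group and none of the other had a peak. Between old and young WT Cre, 20 of 61 regions of the 9 genes (32.8%) were gained, beside 30.3% of all regions. These were 5 of Ece1, 4 each of Edn1 and Edn3, 3 of Ptgs1, 2 of Ptgis and 1 each of Nos3 and Ednrb. Between young EC-K4KO and young WT Cre it was 7 of 45 (15.6%), beside 19.3% of all: 3 of Ece1 and 1 each of Edn1, Edn3, Ednrb and Ptgis. Between old EC-K4KO and old WT Cre it was 6 of 84 (7.14%), beside 6.38%: 3 of Ece1, 2 of Edn3, among them its start site, and 1 of Edn1. Between old and young EC-K4KO it was 18 of 83 (21.7%), beside 14.4%. The shares of the 9 genes were near those of all regions in the first 3 comparisons and above in the fourth, with no test of the difference. In the reverse direction the count was 0 in each of the first 3 comparisons, where 0.00188%, 0.00204% and 0.572% of all regions were lost, and 1 in the fourth (0.556% of all), the site 117127 bp upstream of Edn1. Comparisons that share a group share its libraries. Among the strongest 6157 peaks of each list the gains were 0, 1, 1 and 1.

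Of the patterns counted, the most frequent, in all 4 old libraries, in 1 or 2 young EC-K4KO libraries and in no young WT Cre library, held for 13 of the 96 regions (13.5%) and for 8.55% of all. It took in 4 regions of Ece1, 3 of Edn1, and 2 each of Edn3, Ptgs1 and Ptgis. List length follows the same order of groups, and its part in this pattern was not tested. Found in young WT Cre only were 2 of the 96 regions (2.08%) and 1.97% of all.

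Other genes of the same pathways were open at the promoter to varying extent. Of 60 genes in a list of nitric oxide, endothelin, renin-angiotensin, prostanoid and hyperpolarization genes, a promoter peak was named in all 9 libraries for 2 (3.33%), in 1 to 8 for 29 (48.3%) and in none for 29 (48.3%), beside 11.4%, 44.4% and 44.3% of all named genes. The 2 were Kcnj2, an inward-rectifier potassium channel, and Piezo1, a channel opened by shear stress. Per library, 4 and 7 of the 60 had one in young WT Cre, 10, 14 and 18 in young EC-K4KO, 17 and 19 in old WT Cre, and 21 and 20 in old EC-K4KO. Over all genes the share with a promoter peak was ordered the same way, from 17.0% and 22.4% in young WT Cre to 42.3% and 41.3% in old EC-K4KO. Of the 15 nitric oxide genes, 9 had a promoter peak in some library, among them Cav1, the caveolar protein that binds Nos3, in 8, and Nostrin, a Nos3 trafficking protein, in 7. The A-type receptor Ednra, known from smooth muscle, had one in the 2 old EC-K4KO libraries. Gja4 and Ramp2, genes of endothelial coupling and of the adrenomedullin receptor, had one in 6 libraries, young EC-K4KO replicates 2 and 3 and all old ones. Nos1, Nos2, Agtr1a and Ptgir had none.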

How the data were processed

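Per the labels and the study's methods, the authors trimmed the reads, aligned them to mm10 (GRCm38) with Bowtie2, filtered them, and called broad peaks in each library with MACS2 without a named control library. The deposited annotation names a gene for each peak with its distance to the TSS. The study's methods name ChIPseeker for annotating peaks and HOMER for motif searches, and do not say which wrote the deposited annotation. The deposited lists hold the peak score (10 times the −log10 q, within 1), the fold enrichment as a ratio, and the −log10 p and −log10 q, as the authors' peak caller wrote them. Distances to the TSS were used as deposited. No read counts were used, so the study's test on read counts could not be rerun and depth is unknown.

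Here peaks were ranked in each list by −log10 p. Peaks sharing at least 1 bp were joined into regions. For the 4872 regions with a peak in every library, the rank was turned into a normal score, and the log2 width was centred on the library's median. Both were fitted over all 4 groups with limma 3.58.1 in R 4.3.3, with Benjamini-Hochberg adjustment over all regions and a threshold of 0.05. Errors of differences are standard errors, and in each fit they pool the spread of all its groups. Sites without a peak in every library were fitted over the regions of fewer libraries; the fits over the 7 outside young WT Cre and over the 4 old ones were chosen after seeing the data. Sites were placed with GENCODE M21 and RefSeq. The text names the 9 genes, genes of the pathway and marker lists, Klf4, and the 3 promoters with the smallest Euclidean distance to that of Nos3 over the 9 percentiles. Scripts used Python 3.11.15, pandas 2.3.3, numpy 2.4.6 and pysam 0.24.0, and the tests were checked on simulated data. The genes and lists were chosen with earlier results of these data known.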

Additional observations from a re-analysis of the deposited data

How the results depend on the processing

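Depth was not given and lists differed in length, so absent peaks and gains are bounded by list length. Over the strongest 6157 peaks of each list, gained regions of the 9 genes numbered 0 (old minus young WT Cre), 1 (young EC-K4KO minus young WT Cre), 1 (old EC-K4KO minus old WT Cre) and 1 (old minus young EC-K4KO), peaks of the 9 genes over all libraries 34, and promoter-peak genes summed over libraries 19, in place of 282 and 31. With q under 0.01, old EC-K4KO minus old WT Cre gained 10 in place of 6. Of the values of single regions, 165 kept direction and side of the threshold, 5 passed it newly and 14 changed sign; of the counts, 81 stayed within 1.5 times and 54 did not. The cause was not tested.

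Called regions of 4872 by rank numbered 296 for old minus young WT Cre, 202 for young EC-K4KO minus young WT Cre and 317 for old minus young EC-K4KO. Ranking by fold gave 662 and 82 in the first 2. By width, 583 and 660 became 3433 and 2886 without centring. In the 7 libraries outside young WT Cre, old minus young EC-K4KO had 999 by rank and 24 by width, of 11594 regions. With the replicate number as a block (replicate block), the rank calls were 187, 0 and 55 and the width calls 68, 14 and, for old minus young EC-K4KO, 0. Deviations of same-numbered libraries from their group mean correlated at −0.0133 to 0.118 (median 0.0466). Those of others correlated at −0.118 to 0.0722 (median −0.0342). In a group of 2 libraries the deviations mirror each other, so many of these values are the same with opposite sign. They cannot settle whether the numbers pair the libraries.

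Leaving out 1 library of the groups compared gave rank calls of 0 (old WT Cre replicate 1) to 919 (young WT Cre replicate 1) for old minus young WT Cre, 4 (young EC-K4KO replicate 2) to 812 (young WT Cre replicate 2) for young EC-K4KO minus young WT Cre, 0 (either old EC-K4KO library) to 150 (young EC-K4KO replicate 1) for old minus young EC-K4KO, and 0 to 89 (young WT Cre replicate 2) for the interaction. Width calls were 20 (old WT Cre replicate 2) to 1372 (young WT Cre replicate 2) for old minus young WT Cre, 67 (young EC-K4KO replicate 2) to 1396 (young WT Cre replicate 2) for young EC-K4KO minus young WT Cre, and 0 to 6 for old minus young EC-K4KO. For old EC-K4KO minus old WT Cre, leaving out 1 old library gave 0 by rank and by width, as did the fit of the 4 old libraries, chosen after seeing the data. Leaving out young WT Cre replicate 1, which belongs to neither group but raised the number of regions to 7440, gave 997 by rank and 12 by width for old minus young EC-K4KO and 0 and 1 for old EC-K4KO minus old WT Cre. Gains ranged from 21 to 41 (without old WT Cre replicate 2) for old minus young WT Cre, 2 (young EC-K4KO replicate 2) to 11 (young WT Cre replicate 2) for young EC-K4KO minus young WT Cre, 10 (old WT Cre replicate 2) to 20 (old EC-K4KO replicate 1) for old EC-K4KO minus old WT Cre, and 19 to 33 (old EC-K4KO replicate 1) for old minus young EC-K4KO. A group left with 1 library counted a gain at 1 library.

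At the Edn1 start, old minus young WT Cre by rank was −0.17 when ranked by fold and ranged from −0.22 to 0.46 with 1 library left out. Old EC-K4KO minus old WT Cre ranged from −0.027 to 0.58 by rank and from −0.43 to 0.26 by width, and was 0.0062 by width without centring. Old minus young EC-K4KO by width ranged from −0.50 to 0.20 and was 0.053 without centring. At Nos3, old minus young WT Cre by rank was 0.14 with q under 0.01 and ranged from −0.54 to 0.46 with 1 library left out. Young EC-K4KO minus young WT Cre by rank ranged from −0.93 to −0.0049. By width the former ranged from −0.0064 to 0.60, and the latter from −0.12 to 0.45.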
